A study of Homo sapiens with 3 samples.

Results

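The labels assign H82R cells to the established human small cell lung cancer line H82. The cells held counts of most genes of interferon reception and signal relay. These ran from TYK2 and STAT3 well above the median gene to JAK2, IFNAR2, IRF1 and IRF9 well below it. The IFNAR2 and IRF9 counts are uncertain, because exon bases of each are shared with a second annotated gene. Of the 18 interferon-stimulated genes of the module, 15 were under the limit of detection used here. The other 3 were detected (16.7%, against 69.8% of protein-coding genes). Of 30 further interferon-stimulated genes 16 were detected (53.3%, against 69.8% of protein-coding genes). Of these 16, 14 lay below the median gene (87.5%, against 45.1% of all detected genes) and 2 above it. The gene module described here holds 42 genes of nucleic acid sensing and the interferon response, out of 27574 genes kept. They were chosen by their symbols, with earlier results of these data known. All 42 are in the deposited table, where CGAS and STING1 carry the names MB21D1 and TMEM173.

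The data are RNA sequencing read counts of 3 libraries of 1 group, named here replicate 1, 2 and 3. Small cell lung cancer is a neuroendocrine tumour of the lung, and the treatment in the labels, the same for each library, is etoposide plus cisplatin, with no dose or time. Both drugs damage DNA, etoposide by way of topoisomerases and cisplatin by crosslinking bases. No untreated or parental sample is named, so the values are levels in these cells and their spread between libraries, not an effect of treatment. The group is 1 line. Whether the libraries are separate cultures is not stated, so the p-values rest on a spread between samples that may be technical.

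Replicates 1, 2 and 3 held 25013265, 42610181 and 23868201 counts. Counts were scaled to a common library size (CPM), and levels of different genes were compared only as CPM per kb of annotated exon. Genes are called detected where each library holds at least 10 counts, and 0 counts, taken to allow 3, set a limit of 0.121 CPM in replicate 1, 0.0702 CPM in replicate 2 and 0.125 CPM in replicate 3, for counting error only. All 8 small cell lung cancer markers were detected and summed to 1333 to 1345 CPM. Summed leukocyte markers reached 26.9 to 35.6 CPM, mostly from CD68, which overlaps another annotated gene, and CD3E, while ITGAM was at 0 counts in every library. Fibroblast markers summed to 3.34 to 5.72 CPM and endothelial markers to 1.53 to 2.13 CPM. In bulk RNA, fewer cells of a type and less RNA per cell cannot be told apart.

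Cells read foreign or misplaced nucleic acids with sensor proteins in the cytoplasm and in endosomes. Sensor adaptors activate the kinases TBK1 and IKBKE, which phosphorylate interferon regulatory factors (IRFs), and these start transcription of the interferon genes. Secreted interferon binds receptors on the cell surface, and the JAK kinases bound to them phosphorylate STAT proteins. A complex of STAT proteins with IRF9 then binds the interferon-stimulated response element (ISRE) in the promoters of interferon-stimulated genes, whose products block viruses.

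The ISRE is written here as its core TTTCNNTTTC, the half-site TTTC repeated after any 2 bases, searched on both strands of the 300 bases from 250 before to 50 after the RefSeq start of each gene (GRCh38.p14). RefSeq promoters were matched for 31 of the 42 genes. The core was present in 12 of 13 promoters of interferon-stimulated genes (92.3%), in 2 of 18 promoters of the other members (11.1%) and in 996 of all 27305 promoters (3.65%). The 2 other members with a core were IFIH1 and TLR3. A match describes the letters of the window and does not show that a factor binds there. The 250 bases before the start are shown for BST2 and IFI6, the interferon-stimulated genes with most counts, for IFIT1 and ISG15, which had few, and for IFIH1, a sensor gene with 1 count in all. They were chosen after their values were seen, are written on the strand of the gene, and have the ISRE core in capitals. BST2 is chr19:17405631-17405880 (minus strand), IFI6 chr1:27672193-27672442 (minus), IFIT1 chr10:89392373-89392622 (plus), ISG15 chr1:1013247-1013496 (plus) and IFIH1 chr2:162318685-162318934 (minus).
BST2: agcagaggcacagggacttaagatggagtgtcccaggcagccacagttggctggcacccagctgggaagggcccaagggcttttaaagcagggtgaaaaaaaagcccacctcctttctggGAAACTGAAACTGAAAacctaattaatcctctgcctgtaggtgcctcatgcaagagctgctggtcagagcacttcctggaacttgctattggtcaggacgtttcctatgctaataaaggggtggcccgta
IFI6: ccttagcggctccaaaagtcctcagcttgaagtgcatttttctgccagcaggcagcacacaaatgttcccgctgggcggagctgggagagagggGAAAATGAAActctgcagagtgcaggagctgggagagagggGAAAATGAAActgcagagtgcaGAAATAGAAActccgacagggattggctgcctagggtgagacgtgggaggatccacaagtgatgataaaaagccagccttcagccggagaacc
IFIT1: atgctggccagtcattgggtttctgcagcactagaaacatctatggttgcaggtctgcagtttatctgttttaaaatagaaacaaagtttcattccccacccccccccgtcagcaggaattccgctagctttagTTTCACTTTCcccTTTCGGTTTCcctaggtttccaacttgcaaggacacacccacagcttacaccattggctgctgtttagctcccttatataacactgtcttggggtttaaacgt
ISG15: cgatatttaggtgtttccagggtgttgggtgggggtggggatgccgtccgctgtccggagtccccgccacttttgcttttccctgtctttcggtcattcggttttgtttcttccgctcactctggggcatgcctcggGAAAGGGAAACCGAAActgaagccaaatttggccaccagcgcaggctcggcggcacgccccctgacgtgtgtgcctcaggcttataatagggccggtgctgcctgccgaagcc
IFIH1: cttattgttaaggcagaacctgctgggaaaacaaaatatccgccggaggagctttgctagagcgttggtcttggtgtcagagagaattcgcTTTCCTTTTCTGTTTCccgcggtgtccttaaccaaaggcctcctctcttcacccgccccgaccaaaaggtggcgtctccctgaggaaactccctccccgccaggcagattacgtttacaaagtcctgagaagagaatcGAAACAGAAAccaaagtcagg
Each of the 5 windows holds at least 2 cores, so a core before the start was present both in genes with many counts and in genes with few. Overlapping cores were counted separately. The 2 cores of BST2 begin 130 and 124 bases before its start and overlap, as do those of ISG15 (113 and 107 bases). The first 2 of IFIH1 (159 and 153 bases) also overlap. The first core of IFIT1 begins 116 bases before its start.

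Of the 42 members, 21 were detected, against 53.0% of all genes in the table and 69.8% of the protein-coding genes matched to the annotation. The members split by role. Among interferon-stimulated genes 3 of 18 were detected (16.7%), and among all other members 18 of 24 (75.0%). These other members were uneven. Of the DNA sensing genes 0 of 3 were detected, and of the RNA sensing genes 3 of 5 (60%), namely DDX58, MAVS and ADAR. The kinases, receptors, JAKs and STATs were all detected, and 4 of 5 IRFs were (80%). Genes at 0 counts in every library were IFITM1 and OAS1 among the interferon-stimulated genes and IRF7 and TREX1 among the other members.

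**Figure D1:**
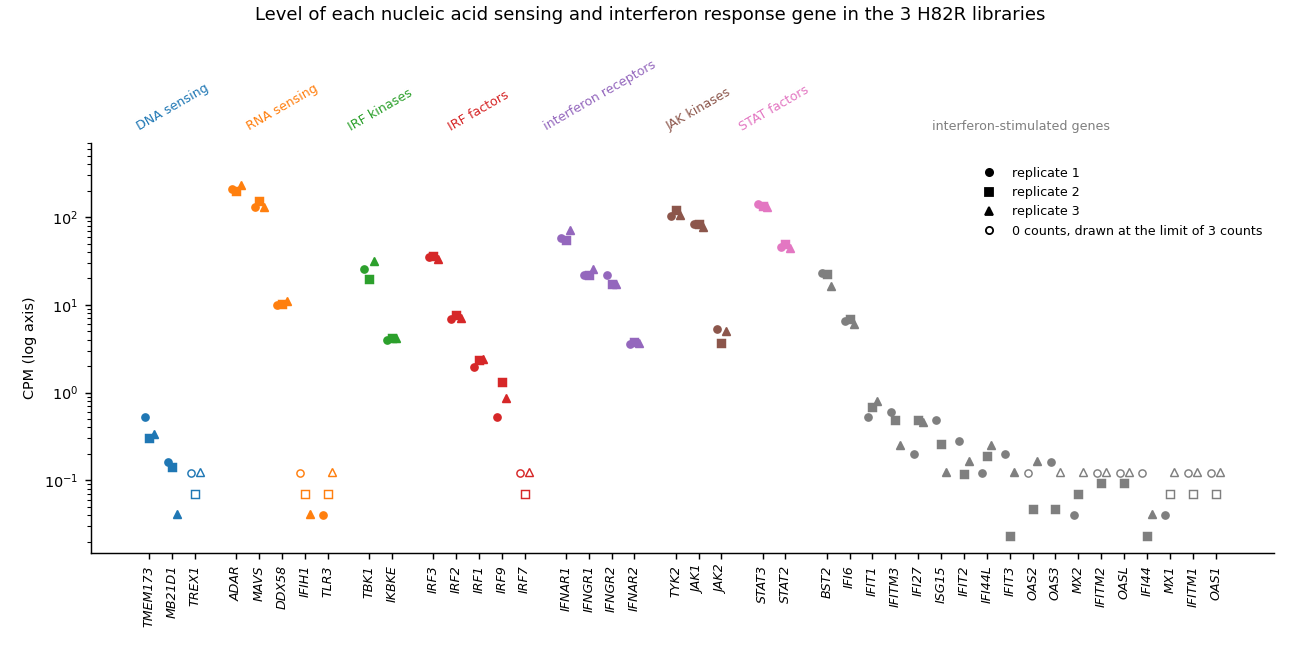
Level of each of the 42 genes in CPM (vertical log axis) by role, with 1 symbol per library and open symbols for 0 counts, drawn at the limit that 3 counts set. The relay genes, from the kinases to the STATs, lie mostly above 1 CPM. Of the sensing genes at the left only DDX58, MAVS and ADAR do, and of the interferon-stimulated genes only BST2 and IFI6.

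Against the median detected gene, which stood at 5.58 CPM per kb, 11 members lay above, 8 lay below and 2 were not distinguished in limma's one-sample test with Benjamini-Hochberg adjustment over 13539 genes. These are 52.4% and 38.1% of the detected members, and the same test called 45.3% of all detected genes above and 45.1% below, so the count of calls in the module is close to the background. The median detected member lay 0.34 above the median gene on the log2 scale of CPM per kb, the point at which the detected genes as a whole are centred.

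**Figure D2:**
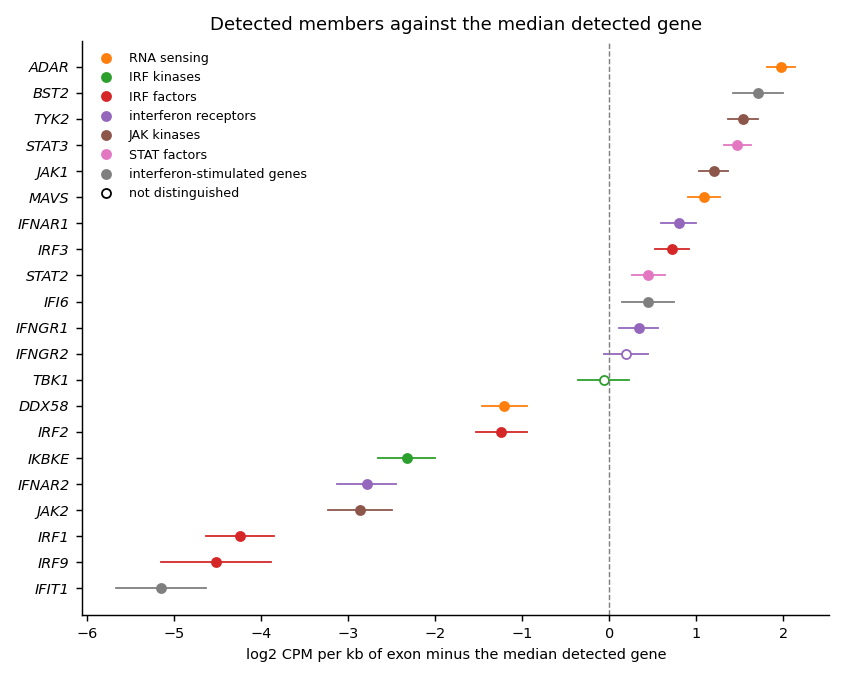
Mean log2 CPM per kb of exon minus that of the median detected gene for the 21 detected members, with 95% confidence intervals from limma (n = 3) and open points where the test made no call. ADAR is highest at 1.97 and IFIT1 lowest at -5.15.

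Counts of cGAS and STING were low. MB21D1, whose product cGAS makes a cyclic dinucleotide when it binds DNA, had 4, 6 and 1 counts in replicates 1, 2 and 3. TMEM173, whose product STING is the receptor for that dinucleotide, had 13, 13 and 8 counts, or 0.523, 0.304 and 0.334 CPM. Both genes were under the detection minimum, MB21D1 in every library and TMEM173 in replicate 3 only. Summed over the libraries, MB21D1 stood at 0.300 times TMEM173 per kb of exon (95% exact binomial interval 0.137 to 0.606). TREX1, the exonuclease that removes cytoplasmic DNA, was listed at 0 counts in all 3 libraries, but in the reference annotation 100% of its exon bases also belong to ATRIP on the same strand. Its 0 counts therefore cannot be read as absence of the RNA, and the part of the overlap in that count was not tested. MB21D1 lies on chromosome 6 from 73413515 to 73452276 and TMEM173 on chromosome 5 from 139475534 to 139482935 (GENCODE 29, GRCh38).

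RNA sensing genes were uneven, with 1 cytoplasmic sensor present and the other at the limit of detection. DDX58, which encodes the sensor RIG-I, had 247, 442 and 264 counts, or 9.94, 10.3 and 11.0 CPM. IFIH1, which encodes the related sensor MDA5, had 0, 0 and 1 counts. The endosomal sensor gene TLR3 had 1, 0 and 0 counts. Every library therefore held DDX58 reads, and no library held more than 1 read of either other sensor. Over the 3 libraries DDX58 exceeded IFIH1 by 1118 times per kb, with a wide 95% exact binomial interval of 200.2 to 44216 because the denominator is 1 count. DDX58 lay below the median gene, at a distance of -1.20 ± 0.11 (SE) on the log2 scale of CPM per kb (limma, adjusted p = 1.2e-05), at percentile 30.7 of the detected genes.

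MAVS, the mitochondrial adaptor through which both cytoplasmic RNA sensors signal, had 132, 154 and 131 CPM. It averaged 11.8 ± 1.11 CPM per kb (SD, n = 3) and lay above the median gene by 1.09 ± 0.08 (SE; limma, adjusted p = 1.9e-06). ADAR, which edits adenosines in double-stranded RNA and so hides cellular RNA from MDA5, had 208, 197 and 231 CPM. At 21.9 ± 1.83 CPM per kb it was the highest of all 42 members, at percentile 85.7 of the detected genes. The adaptor and the editor were thus both high in every library, beside a sensor gene, IFIH1, that was not detected. DDX58 lies on chromosome 9 from 32455705 to 32526324, and MAVS on chromosome 20 from 3846799 to 3876123.

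The 2 kinases that phosphorylate IRFs differed. TBK1 had 25.8, 19.8 and 31.2 CPM and its relative IKBKE had 3.99, 4.17 and 4.22 CPM. TBK1 was not distinguished from the median detected gene (adjusted p = 0.631, limma), while IKBKE lay below it, at -2.33 ± 0.14 (SE) on the log2 scale of CPM per kb (limma, adjusted p = 7.1e-07). Per kb of exon TBK1 was 5.16, 3.79 and 5.90 times IKBKE in replicates 1, 2 and 3, so it was higher in 3 of 3 libraries.

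Among the IRFs, IRF3 was present and IRF7 was not seen. IRF3, the factor that TBK1 activates first, had 35.0, 36.1 and 33.0 CPM and lay above the median gene by 0.72 ± 0.08 (SE; limma, adjusted p = 4.7e-05). IRF7, which amplifies the interferon response once it is itself induced, had 0 counts in every library. Per kb IRF3 was at least 201-fold, 356-fold and 182-fold higher than IRF7 in replicates 1, 2 and 3, taking 3 counts per library as the limit for IRF7. IRF2, a factor that competes with IRF1 on the same DNA sites, had 6.96, 7.72 and 7.09 CPM, and IRF1 had 1.93, 2.34 and 2.42 CPM. Both lay below the median gene, and IRF2 was 9.02, 8.26 and 7.34 times IRF1 per kb. Each of these 3 ratios has a 95% exact binomial interval above 1, and the lowest bound is 5.42. Without length scaling the ratios of IRF2 to IRF1 counts were 3.60, 3.30 and 2.93 in replicates 1, 2 and 3.

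IRF9, the DNA-binding part of the interferon-activated STAT complex, was the lowest detected IRF, with 13, 57 and 21 counts. It lay below the median gene, at -4.52 ± 0.27 (SE) on the log2 scale of CPM per kb (limma, adjusted p = 6.8e-07). Its level differed between libraries, from 0.523 CPM in replicate 1 to 1.33 CPM in replicate 2. In the reference annotation 48.4% of its exon bases are annotated to a second gene of that strand as well, which makes the count uncertain. IRF3 lies on chromosome 19 from 49659569 to 49665875, IRF7 on chromosome 11 from 612553 to 615999 and IRF9 on chromosome 14 from 24161053 to 24166565.

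All 4 receptor genes were detected. IFNAR1, a chain of the type I interferon receptor, had 58.3, 54.4 and 70.6 CPM and lay above the median gene by 0.80 ± 0.09 (SE; adjusted p = 3.6e-05, limma). IFNAR2, its partner chain and the main binding site for the ligand, had 3.58, 3.72 and 3.63 CPM, the narrowest spread of any detected member. It lay below the median gene, at a log2 distance of -2.79 ± 0.15 (SE; adjusted p = 2.9e-07, limma). IFNAR1 was 11.9, 10.7 and 14.2 times IFNAR2 per kb, but 84.8% of the coding bases of IFNAR2 are shared with a second annotated gene on the same strand, which leaves the IFNAR2 count uncertain.

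The chains of the interferon gamma receptor were closer to each other. IFNGR1, which binds the ligand, had 21.6, 22.0 and 25.5 CPM, and IFNGR2, which signals with it, had 21.7, 17.3 and 17.4 CPM. IFNGR1 to IFNGR2 ratios per kb were 0.900, 1.15 and 1.33, so the order differed between libraries. IFNGR1 lay slightly above the median gene (0.34 ± 0.10 on the log2 scale, SE; limma, adjusted p = 0.0094), but the call was lost when only genes with at least 1 CPM were kept (adjusted p = 0.200), and on CPM without length scaling it lay below the median gene (-0.33). IFNGR2 was not distinguished from the median gene (adjusted p = 0.129). IFNAR1, IFNAR2 and IFNGR2 are neighbours on chromosome 21, between 33229901 and 33479348.

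JAK1 and TYK2, the kinases bound to the type I receptor, were both well above the median gene. TYK2 had 103, 119 and 106 CPM and JAK1 had 82.7, 82.5 and 76.5 CPM. JAK1 was 0.864, 0.743 and 0.771 times TYK2 per kb, lower in 3 of 3 libraries. JAK2, which pairs with JAK1 on the interferon gamma receptor, had 5.35, 3.70 and 5.05 CPM and lay below the median gene at a log2 distance of -2.86 ± 0.16 (SE; adjusted p = 4.0e-07, limma). Per kb JAK1 exceeded JAK2 by 15.1, 21.8 and 14.8 times.

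STAT3, which answers many cytokines, had 142, 136 and 130 CPM, and STAT2, the member that serves type I interferon with IRF9, had 45.4, 49.3 and 44.2 CPM. STAT3 was 2.16, 1.91 and 2.05 times STAT2 per kb. STAT2 exceeded IRF9, its partner in the ISRE-binding complex, by 53.9, 22.9 and 31.3 times per kb. This gap was the widest among the 8 pairs in which both genes were detected. Its size is uncertain, because 48.4% of IRF9 exon bases are shared with a second annotated gene on the same strand. The spread between libraries within the gap came with the IRF9 counts. STAT2 varied by 1.12 times between its highest and lowest library and IRF9 by 2.55 times.

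**Figure D3:**
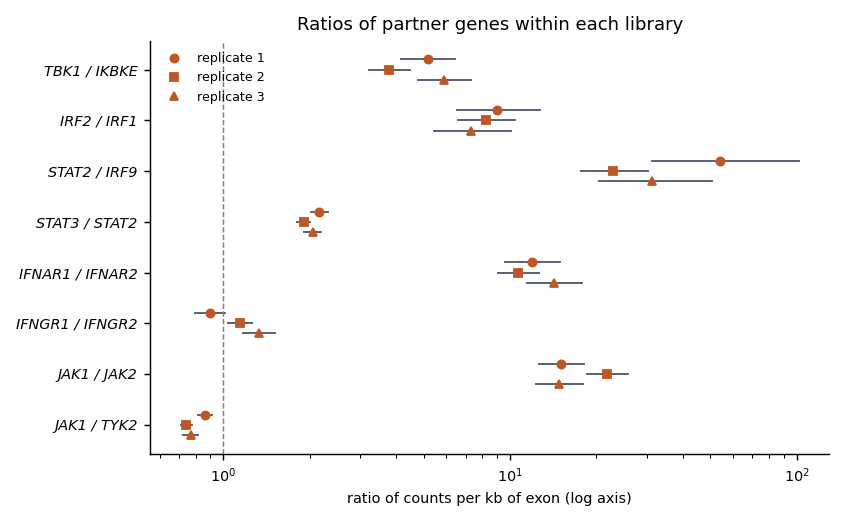
Ratio of counts per kb of exon between partner genes (horizontal log axis) in each of the 3 libraries, with 95% exact binomial intervals that cover counting error only. All pairs but IFNGR1 to IFNGR2 stay on 1 side of a ratio of 1 in the 3 libraries, and STAT2 to IRF9 reaches 53.9 in replicate 1. Ratios with IRF9 or IFNAR2 are uncertain, because exon bases of each are shared with a second annotated gene.

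With 3 libraries an exact sign-flip test of a ratio cannot give a p below 0.25, so no p is attached to these ratios.

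Only 3 of the 18 interferon-stimulated genes were detected, and 2 of them carried most of the counts. BST2, which encodes tetherin, a membrane protein that holds budding viruses on the cell, had 22.8, 22.3 and 16.4 CPM. At 18.3 ± 3.18 CPM per kb it stood at percentile 82.1 of the detected genes, above the median gene by 1.71 ± 0.12 (SE; limma, adjusted p = 2.0e-06). IFI6, which encodes a membrane protein with antiviral activity, had 6.60, 6.88 and 5.97 CPM and lay above the median gene by 0.44 ± 0.13 (SE; adjusted p = 0.0115, limma). Both are short transcripts, and on CPM without length scaling both lay below the median gene, at -0.51 for BST2 and -2.14 for IFI6. IFI6 was also not distinguished from the median gene when only genes with at least 1 CPM were kept or when the longest transcript set the length (adjusted p = 0.106 and 0.834).

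BST2 and IFI6 together held 730 of 796, 1247 of 1359 and 536 of 593 counts of the 18 genes in replicates 1, 2 and 3. These are 91.7%, 91.8% and 90.4%, with 95% exact binomial intervals that overlap (89.6 to 93.5, 90.2 to 93.2 and 87.7 to 92.6). The other 16 genes summed to 2.66, 2.62 and 2.38 CPM, less than IFI6 alone in every library. IFIT1, which binds viral RNA caps, was the third detected gene, with 13, 29 and 19 counts, and lay below the median gene at a log2 distance of -5.15 ± 0.22 (SE; adjusted p = 1.0e-07, limma), at percentile 2.40 of the detected genes.

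The undetected interferon-stimulated genes had from 0 to 21 counts in a library. ISG15, the ubiquitin-like modifier, had 12, 11 and 3 counts. The relatives of IFIT1 were similarly scarce, with 7, 5 and 4 counts of IFIT2 and 5, 1 and 3 counts of IFIT3. IFI27 had 5, 21 and 11 counts, and IFITM3, which blocks entry of viruses at endosomes, had 15, 21 and 6 counts. These genes were seen in all 3 libraries but never at 1 CPM.

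The remaining genes were mostly absent from the counts. The oligoadenylate synthetase genes, whose products activate RNA decay, had 0 counts of OAS1 in any library, 0, 2 and 4 counts of OAS2, 4, 2 and 0 counts of OAS3 and 0, 4 and 0 counts of OASL. The dynamin-like antiviral gene MX1 had 1, 0 and 0 counts and MX2 had 1, 3 and 0 counts. IFI44 had 0, 1 and 1 counts and its neighbour IFI44L had 3, 8 and 6. IFITM1 had no count and IFITM2 had 0, 4 and 0. IFITM1, IFITM2 and IFITM3 are close copies, and 50.4% of the coding bases of IFITM1 also belong to the annotation of IFITM2, so reads can be split or lost among them.

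Many of these genes lie in clusters. IFIT1, IFIT2 and IFIT3 lie on chromosome 10 between 89283694 and 89406486, OAS1, OAS2 and OAS3 on chromosome 12 between 112906777 and 113011723, MX1 and MX2 on chromosome 21 between 41361943 and 41459214, and the IFITM genes on chromosome 11 between 307631 and 327537. Of the protein-coding genes within 200 kb of the 18 interferon-stimulated genes, 55 of 86 were detected (64.0%), against 69.8% of all protein-coding genes. The detected share next to the OAS cluster was 4 of 7 and next to the IFITM cluster 9 of 15, while next to the MX cluster it was 0 of 3. BST2 had 17 detected genes of 21 around it and IFI6 had 5 of 6.

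Promoters of the interferon-stimulated genes also had few CpG dinucleotides. The median was 4 CpG in the 300 bases over 13 promoters, against 21 over the 18 promoters of the other members and 14 over all promoters. The detected genes BST2, IFI6 and IFIT1 had 2, 9 and 4 CpG, and the undetected ones ranged from 0 to 20, so the detected genes were not set apart by this count. ISG15, MX1 and OAS3 had 20 CpG each and were not detected.

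Other genes of the pathway were read from lists chosen by function, with earlier results of these data known. No interferon gene was detected (0 of 15, against 69.8% of protein-coding genes). The 15 type I, II and III genes held 8, 8 and 5 counts in total, among them 0, 0 and 2 counts of IFNB1 and 0, 1 and 0 counts of IFNG. Several of the 15 are near-identical copies. Of 18 other sensors and adaptors, 12 were detected (66.7%, against 69.8% of protein-coding genes), 3 of them above and 8 below the median gene (25.0% and 66.7%, against 45.3% and 45.1% of all detected genes). TRAF3, an adaptor of MAVS (82.4 CPM on average), TRIM25, a ubiquitin ligase (91.1 CPM), and EIF2AK2, which encodes the RNA-activated kinase PKR (98.9 CPM), were the 3 highest per kb. IFI16, a nuclear DNA sensor, was the lowest detected with 17, 23 and 13 counts. AIM2, an inflammasome DNA sensor named after its values were seen, had 21, 34 and 23, and the adaptor gene MYD88 had 6, 4 and 3.

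**Figure D4:**
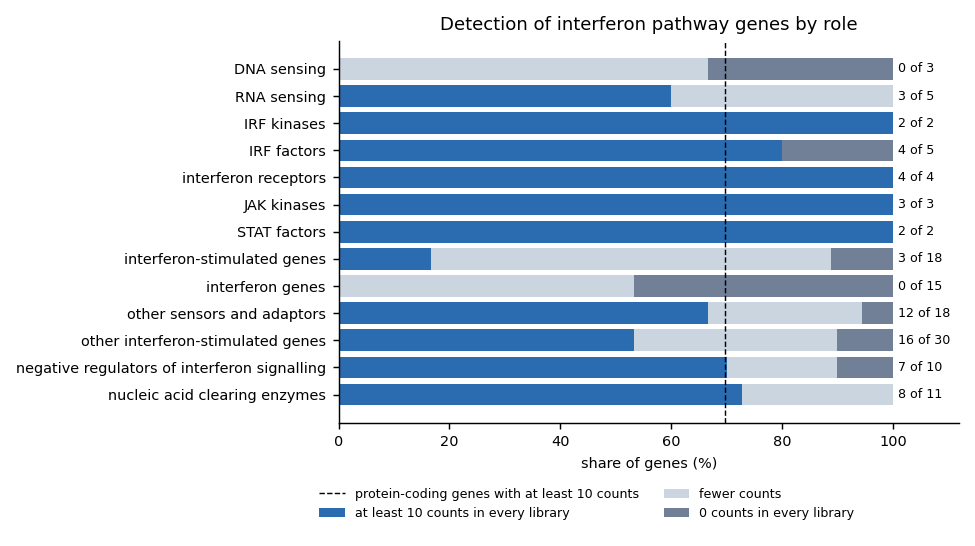
Share of genes (horizontal axis, %) with at least 10 counts in every library, with fewer counts and with 0 counts in every library, for the 8 roles of the module and 5 further lists, with the number detected at the right. The dashed line marks the 69.8% detected among protein-coding genes, and 3 of 18 interferon-stimulated genes and 0 of 15 interferon genes were detected.

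Of a further 30 interferon-stimulated genes 16 were detected (53.3%, against 69.8% of protein-coding genes). Above the median gene stood 2 of the 16 and below it 14 (12.5% and 87.5%, against 45.3% and 45.1% of all detected genes). UBE2L6, the enzyme that conjugates ISG15, had 20.5, 32.5 and 14.5 CPM and lay above it (0.81 on the log2 scale; limma, adjusted p = 0.0045), as did HERC5, the ligase for ISG15, at 39.5, 37.0 and 37.9 CPM (0.53; limma, adjusted p = 2.5e-04). UBE2L6 and HERC5 were therefore detected where ISG15 itself was not. PLSCR1 lay just below the median gene (-0.34) and GBP2 was the lowest detected. Among those not detected were RSAD2, CMPK2, CXCL10 and CCL5. The median detected member of the list lay at -1.63 on the log2 scale of CPM per kb relative to the median gene.

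Negative regulators were mixed. The phosphatase genes PTPN11 (245 CPM on average), PTPN1 (85.8 CPM) and PTPN2 (58.8 CPM), whose products remove phosphate from JAK and STAT proteins or their receptors, lay above the median gene. Another phosphatase gene of the list, PTPN6 (12.3 CPM), named after its values were seen, lay below it (-1.19 on the log2 scale, limma adjusted p = 3.4e-05). The lowest detected, CISH, also lay below. The interferon-induced inhibitors SOCS1 (6, 9 and 6 counts), SOCS3 (2, 4 and 0) and USP18 (0 in every library) were not detected. Of 10 genes in this list 7 were detected (70%, against 69.8% of protein-coding genes). Above the median gene stood 4 and below it 3 (57.1% and 42.9%, near the 45.3% and 45.1% of all detected genes). Among 11 nucleic acid clearing enzymes 8 were detected, 3 above and 4 below the median gene (37.5% and 50%, near the same shares of all detected genes). SKIV2L (123 CPM), DNASE2 (30.5 CPM) and SAMHD1 (82.7 CPM) were highest per kb and RNASEH2A was the lowest detected. For RNASEH2A, 30.8% of exon bases are shared with a second annotated gene on the same strand, which leaves its count uncertain.

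Between libraries, 13 of the 21 detected members (61.9%) varied by more than counting error in a chi-square test of homogeneity adjusted over 14612 detected genes, against 68.7% of all detected genes, so the module varied about as often as the rest. The count was 10 of 22 detected members without replicate 1, 8 of 21 without replicate 2 and 7 of 24 without replicate 3. Of all detected genes, 52.9%, 39.0% and 51.1% differed between the 2 libraries left in each case. Without replicate 3 the module therefore varied less often than the rest. TBK1 had its highest level in replicate 3 and its lowest in replicate 2, 1.57 times apart. BST2 was lowest in replicate 3 and JAK2 was lowest in replicate 2. The ratio of highest to lowest library among detected members ran from 1.04 for IFNAR2 to 2.55 for IRF9. Outside the module, replicate 2 held the highest level of some interferon-stimulated genes and the lowest of others: GBP1 was highest there, at 5.15, 23.5 and 9.43 CPM in replicates 1, 2 and 3, and SAMD9L was lowest there, at 1.13, 0.281 and 1.34 CPM. Both were chosen after their values were seen.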

How the data were processed

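Per the labels' protocols, TRIzol was used for total RNA and Illumina's instructions for the libraries. The authors deposited raw read counts per gene symbol, 1 column for each of the 3 libraries, matched to its library by title. The submitters' processing notes list STAR 2.6.1b and hg38 without saying what each was used for, and the counter, its annotation and its strand setting were not given in the sources used here. Of 27587 names, 13 that had turned into dates were left out. CPM used TMM factors (edgeR 4.0.16). Exon length, position and overlap came from GENCODE 29 on GRCh38, which matched all 42 members and 92.7% of the detected genes, and promoters from RefSeq.

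The labels form 1 group, so there was no contrast for edgeR's quasi-likelihood test or for DESeq2. Log2 CPM per kb (prior count 2) minus the median detected gene of the library was tested with a two-sided one-sample moderated test (limma-trend, limma 3.58.1, R 4.3.3), and spread between libraries with a chi-square test, both adjusted by Benjamini-Hochberg over all detected genes at a threshold of 0.05. Both were also run on simulated counts, with 1 fixed spread for all genes in the first test. For the second the counts had counting error only, apart from planted changes. These runs therefore do not show how either test behaves at the spread of these libraries. No 2 libraries agreed within sampling noise: 39.0% to 52.9% of detected genes differed between the members of a pair (chi-square test). The members, lists and pairs were chosen with earlier results of these data known. All members were accounted for; of each further list the 3 highest and the lowest detected genes were named, with undetected ones. Where the strand setting is unknown, reads of a gene and its antisense partner cannot be told apart; among detected members, opposite-strand exons cover 12.8% to 39.1% of the exon bases of IRF1, IRF3, TBK1, IFNAR2 and IFNGR2.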

Additional observations from a re-analysis of the deposited data

How the results depend on the processing

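The alternatives were leaving out each library, DESeq2 1.42.0 size factors, plain totals, other filters, a prior count of 0.5, limma-voom, no length scaling, the longest transcript as length and protein-coding genes as reference. Of 250 levels of single members recomputed, 238 kept their direction and their side of the threshold. No paired analysis was possible because there is 1 group. Members above the median gene numbered 8 to 13 and members detected 19 to 24 over their alternatives. Members below numbered 6 to 12 except that keeping every gene with a count gave 25, a filter that tests more genes and moves the median gene by -0.92 on the log2 scale. Leaving out a library gave 8 to 11 members below, 11 above, 21 to 24 detected, and 7 to 10 that varied between libraries. Of all detected genes, 39.0% to 52.9% varied in the same pairs of libraries. Directions turned for TBK1 without replicate 2 (0.10, with -0.16 as the lowest value on leaving out a library), with any count kept (0.86) and on the longest transcript (0.027), for IFNGR2 at 1 CPM (-0.013), and without length scaling for IFNGR1 (-0.33), IFNGR2 (-0.62), IFI6 (-2.14) and BST2 (-0.51); apart from the scaling itself, the cause was not tested. Genes under 10 counts have levels set largely by counting error, so their ratios stand only with counting intervals.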
